A study of Mus musculus with 65 samples.

Results

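The beta-globin and alpha-globin loci are described here through 114 ChIP-seq peaks, of 143220 peaks in 9 deposited lists from mouse G1E-ER4 cells, an erythroblast line. They are all the peaks that overlap 2 windows of the mm9 build. The beta-globin window is chr7:110900000-111100000 (200 kb), which takes in the Hbb genes (Hbb-b1 and Hbb-b2, the adult beta genes, among them) and their locus control region. The alpha-globin window is chr11:32080000-32220000 (140 kb), which takes in Hba-a1 and Hba-a2, the adult alpha genes, and their upstream enhancers. Each window held 57 of the peaks. Within these windows every peak was taken, by position alone, whatever its list.

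Adult haemoglobin is built from alpha and beta chains, whose genes lie in separate clusters and are switched on together in maturing red cells. Both clusters depend on distant enhancers upstream of the genes. GATA1 and TAL1 bind these enhancers and recruit LDB1, a cofactor that does not bind DNA itself and whose self-association can bring enhancer and promoter together. CTCF is a DNA-binding protein found at domain borders, and cohesin, a ring complex with the subunits RAD21 and SMC3, extrudes DNA loops and halts at CTCF. YY1 is a zinc-finger factor found at promoters and enhancers.

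The lists come from 22 of the 65 samples, and these 22 are of 2 G1E-ER4 sublines. AID stands for a degron tag, on LDB1 in one subline and on SMC3 in the other, through which auxin triggers degradation of the tagged protein. LDB1-AID cells gave 1 list each for LDB1, RAD21, CTCF and YY1 without treatment and 1 for LDB1 after 4 h of auxin, each from 2 replicates. SMC3-AID cells gave lists of LDB1 and RAD21 without treatment and after 4 h of auxin, each from 3 replicates. The labels give no clone number, and all groups share the G1E-ER4 background. Every list merges its replicates into intervals of 400 bp with no height or score. Presence or absence of a peak is therefore the only readout, there is no replicate error, no test over samples was possible, and read depth is unknown. The lists differ in size, from 54286 peaks for CTCF to 25 for RAD21 in auxin-treated SMC3-AID cells. Untreated LDB1 lists held 10741 peaks in LDB1-AID and 8594 in SMC3-AID cells, and untreated RAD21 lists held 33204 and 15245. Erythroid identity was taken from the labels, because peak lists carry no expression.

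No sequence or gene positions of mm9 were used here, so peaks are given by position, and whether they fall in a gene, exon, intron or numbered hypersensitive site was not analysed here. Gene order was read from RefSeq for the GRCm38.p6 assembly. In the beta cluster it runs, toward higher coordinates, from the olfactory receptor gene Olfr67 through Hbb-bt, Hbb-bs, the pseudogene Hbb-bh3, Hbb-bh2, Hbb-bh1 and the embryonic gene Hbb-y to the olfactory receptor gene Olfr66. Promoters of the cluster listed there are on the minus strand, so upstream of the genes means higher coordinates. Hbb-bt and Hbb-bs are the adult beta genes of that assembly, and Hbb-b1 and Hbb-b2 had no promoter entry. The alpha order is Il9r, Snrnp25, Rhbdf1, Mpg, Nprl3, the embryonic gene Hba-x, Hba-a1, Hbq1b, Hba-a2 and Hbq1a, with the globin promoters on the plus strand, so upstream means lower coordinates. Textbook accounts place the alpha-globin enhancers in and around Nprl3 introns, and RefSeq gives HS-26 and HS-40 among the synonyms of Nprl3.

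The promoter sequences below show what the factors would meet at the genes themselves. Each is the 250 bases before the RefSeq start in GRCm38.p6, 5′ to 3′, in a build other than that of the peaks: chr7:103827929-103828178 (minus strand), chr11:32283422-32283671, chr11:32286714-32286963 and chr11:32299819-32300068 (plus strand). Capitals in Hbb-bs and Hba-a1 mark a GATA motif, which is AGATAA on either strand with T also allowed as the first letter and G as the last. In Hbq1b and Hbq1a, the theta-globin genes, they mark AGGNGGC on either strand, a short form of the CTCF core. It was chosen after the sequences were seen, in place of a longer, stricter form whose matches were not counted here.
Hbb-bs: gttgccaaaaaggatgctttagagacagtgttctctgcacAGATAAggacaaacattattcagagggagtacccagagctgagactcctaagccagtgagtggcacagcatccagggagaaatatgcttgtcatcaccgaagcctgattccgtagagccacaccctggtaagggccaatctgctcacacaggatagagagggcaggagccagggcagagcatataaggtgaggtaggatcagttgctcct
Hba-a1: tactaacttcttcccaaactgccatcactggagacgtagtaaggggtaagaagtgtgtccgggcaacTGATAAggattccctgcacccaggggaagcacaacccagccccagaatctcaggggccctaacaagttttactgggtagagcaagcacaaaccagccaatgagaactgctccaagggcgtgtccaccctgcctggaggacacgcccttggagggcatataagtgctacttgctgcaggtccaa
Hbq1b: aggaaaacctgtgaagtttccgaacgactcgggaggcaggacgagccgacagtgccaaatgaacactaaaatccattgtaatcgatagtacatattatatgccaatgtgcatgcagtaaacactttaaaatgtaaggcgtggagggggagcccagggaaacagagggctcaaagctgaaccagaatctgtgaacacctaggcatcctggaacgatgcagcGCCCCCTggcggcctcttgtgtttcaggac
Hbq1a: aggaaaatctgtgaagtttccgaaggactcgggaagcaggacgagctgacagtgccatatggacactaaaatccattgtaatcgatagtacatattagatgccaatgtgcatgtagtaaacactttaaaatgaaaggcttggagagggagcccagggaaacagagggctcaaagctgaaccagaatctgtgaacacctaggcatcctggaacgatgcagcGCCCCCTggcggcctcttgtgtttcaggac

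In windows of 300 bases from 250 before to 50 after the start, a GATA motif was present once in Hbb-bs, once in Hba-a1 and 0 times in Hbb-bt, against 29.8% of 32851 promoters with at least 1. The GATA motif was also present once each in Hba-a2, Hbb-bh2 and Hbb-y, and 2 times each in Hba-x, Il9r and Snrnp25. Hbq1b, Hbq1a, Mpg and Nprl3 had none. The CTCF letters were present once in Hbq1b and 2 times in Hbq1a (1 of these after the start). They were also present once each in Hba-x and Il9r, and in 29.4% of all promoters. The E-box CANNTG, the motif class of TAL1, was present 2 times in Hbb-bs and once in Hba-a1 (72.3% of all promoters have it). The CACCC box CCNCNCCC, the motif class of KLF1, was present once in Hbb-bs and 0 times in Hba-a1 (49.5%). The YY1 motif AANATGGC was present 0 times in each (6.05%). A match of letters is a description and not a bound site. Promoters of Hba-a1 and Hba-a2 were identical over a run of 297 bases. Hbq1b and Hbq1a were 95.3% identical, with 14 mismatches in 300 bases. Reads from such copies cannot always be placed, and how the authors treated them is not given in the sources used here. Hbb-bt and Hbb-bs shared 56.2% of bases without gaps, with no identical run over 14 bases.

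Peaks that shared at least 1 bp were joined into sites, numbered by rising coordinate, which gave 18 beta sites and 23 alpha sites. LDB1 was present in at least 1 list at 10 beta sites and 8 alpha sites. CTCF was present at 9 beta sites and 13 alpha sites. LDB1 and CTCF mostly occupied separate sites: CTCF lay on 2 of 10 beta and 1 of 8 alpha LDB1 peaks of LDB1-AID cells (20%, Wilson 95% interval 5.67 to 51, and 12.5%, 2.24 to 47.1), against 7.4% of all LDB1 peaks. The share over all LDB1 peaks lies inside both intervals, so separate sites were not particular to these loci. The intervals cover counting error only, since peaks of a locus are not independent.

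**Figure D1:**
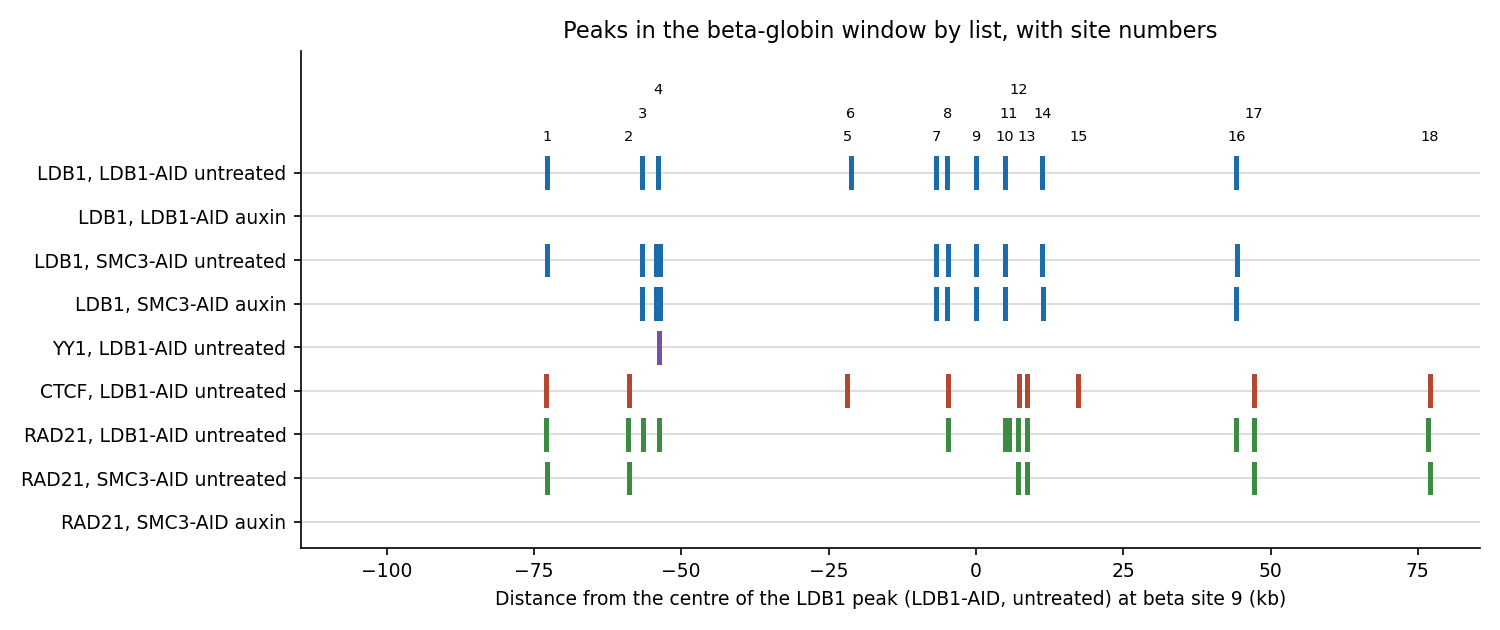
Peaks of the beta-globin window in the 9 lists (rows), at their distance in kb from the LDB1 peak of untreated LDB1-AID cells at beta site 9 (horizontal axis); each tick is the centre of 1 peak and the small numbers are site numbers. The LDB1 rows hold 10, 0, 10 and 9 peaks, and RAD21 after auxin in SMC3-AID cells holds 0.

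LDB1 sites were spread unevenly over the beta window. At the low-coordinate end were beta site 1 (chr7:110941333-110941962), beta site 3 (chr7:110957598-110958134) and beta site 4 (chr7:110959973-110961033). A lone peak followed 32.8 kb further at beta site 6 (chr7:110993071-110993470). A row of 5 LDB1 sites then lay on the upstream side of the window, at beta site 7 (chr7:111007563-111008014), beta site 8 (chr7:111009390-111009910), beta site 9 (chr7:111014238-111014670), beta site 10 (chr7:111019137-111019592) and beta site 14 (chr7:111025603-111026037). Their LDB1 centres in untreated LDB1-AID cells were 1.77, 4.88, 4.91 and 6.42 kb apart. The last LDB1 site, beta site 16 (chr7:111058493-111058924), lay 32.9 kb beyond.

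The row of 5 was called in full in each LDB1 list other than that of auxin-treated LDB1-AID cells. It spanned 18.5 kb in untreated and 18.4 kb in auxin-treated SMC3-AID cells, with 5 peaks in each. In LDB1-AID cells it was joined by beta site 6 into a chain of 6 peaks over 32.9 kb (neighbours within 25 kb). Chains of 5 or more held 13.6% of all untreated LDB1 peaks of LDB1-AID cells, 7.22% of those of untreated SMC3-AID cells and 5.35% after SMC3 degradation. LDB1 density was 5 peaks per 100 kb in both untreated lists. Of 13177 tiles of 200 kb along the genome, 0.357% held as many LDB1 peaks of LDB1-AID cells and 0.121% as many of untreated SMC3-AID cells. The first share depended on the window's edges and was 1.15% with the window widened by 50 kb on each side and 0.158% with it narrowed by 20 kb. For CTCF the same share was 17.2%, and for YY1, with 1 peak, 34.6%. For RAD21 the share was 2.81% in LDB1-AID and 3.29% in untreated SMC3-AID cells. Few tiles of the genome thus held as many LDB1 or RAD21 peaks, while more held as many CTCF or YY1 peaks.

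The sublines placed LDB1 at the same positions. SMC3-AID cells had an untreated counterpart for 9 of the 10 LDB1 peaks of the LDB1-AID subline (90%, Wilson 95% interval 59.6 to 98.2), where the share over all peaks was 67%. At beta site 1 the intervals of both sublines were identical (chr7:110941557-110941956). Across the 9 pairs the centres differed by a median of 30 bp, against 25 bp over 7192 pairs genome-wide. The widest offset, 306 bp, was at beta site 4. There LDB1-AID cells had 1 LDB1 peak (chr7:110960279-110960678), while SMC3-AID cells had 1 on either side of it, with centres 656 bp apart before and 640 bp apart after auxin. Beta site 6 had an LDB1 peak in LDB1-AID cells alone, 644 bp from the CTCF peak of beta site 5 by centres, and it was the 1 beta LDB1 site found in a single list.

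After 4 h of auxin in LDB1-AID cells, 0 of 10 beta LDB1 peaks were still called, a count that allows a share of up to 30%. Over all LDB1 peaks of that list the share kept was 7.77%, so a count of 0 among 10 is near the background. SMC3 degradation left the beta LDB1 peaks in place at 9 of 10 (90%, Wilson 59.6 to 98.2), against 78.2% of all peaks. The kept peaks moved by 3 to 46 bp, with a median of 17 bp beside 19 bp over all 6715 kept peaks. All 5 sites of the upstream row kept LDB1, as did beta sites 3, 4 and 16. The 1 peak no longer called was at beta site 1, where CTCF and RAD21 were also present. Beta site 8, the other LDB1 site with CTCF, kept its peak. Over the whole untreated LDB1 list of SMC3-AID cells, 83.2% of the peaks on CTCF of LDB1-AID cells were kept.

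Cohesin at the beta locus had 2 kinds of site. Of 12 RAD21 peaks of LDB1-AID cells, 7 lay on CTCF (58.3%, Wilson 32 to 80.7), against 80.9% over all RAD21 peaks. The other 5 had no CTCF: 4 lay on LDB1, at beta sites 3, 4, 10 and 16, and beta site 11 (chr7:111019893-111020292) had RAD21 alone. At beta site 16 the RAD21 and LDB1 centres were 6 bp apart and the nearest CTCF centre was 2.99 kb away. LDB1 and RAD21 thus coincided at 6 of 10 beta LDB1 peaks (60%, Wilson 31.3 to 83.2), against 25.1% of all LDB1 peaks. With at least 50% of both peaks shared, the count was 4 of 10.

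The CTCF list is of untreated LDB1-AID cells alone, so every comparison of SMC3-AID peaks with CTCF is across sublines. RAD21 in SMC3-AID cells was called at fewer beta sites, and all 6 of its peaks lay on CTCF, against 92.3% of that list. They were at beta sites 1, 2, 12, 13, 17 and 18. SMC3-AID cells shared 6 of the 12 RAD21 peaks called in the LDB1-AID subline (50%, Wilson 25.4 to 74.6; 43.4% over the list). These were 0 of the 5 without CTCF, which allows up to 60%, and 6 of the 7 with CTCF. Over all peaks of LDB1-AID cells the shares were 12.4% without CTCF, 10.1% with LDB1 and without CTCF, and 50.7% with CTCF. The exception with CTCF was beta site 8, inside the LDB1 row. Hence 1 of 10 LDB1 peaks of SMC3-AID cells carried RAD21 of the same cells (10%, against 5.2% over the list), compared with 6 of 10 in LDB1-AID cells. The RAD21 list of SMC3-AID cells is the smaller one, and whether depth, calling or the subline set this difference cannot be told apart. After auxin in SMC3-AID cells, 0 of the 6 RAD21 peaks were called (up to 50%; 0.092% kept over the list).

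CTCF sites with RAD21 in both sublines numbered 6 at beta, the outermost being sites 1 and 18. They were at beta site 1, beta site 2 (chr7:110955305-110955768), beta site 12 (chr7:111021417-111022016), beta site 13 (chr7:111022951-111023400), beta site 17 (chr7:111061441-111061892) and beta site 18 (chr7:111091105-111091717). Between beta sites 2 and 12, whose CTCF centres were 66.2 kb apart, lay 7 of the 10 LDB1 peaks of LDB1-AID cells. Between beta sites 13 and 17, 38.5 kb apart, lay 2. The pair of beta sites 12 and 13, 1.38 kb apart, divided the upstream row, with beta sites 7 to 10 on one side and beta site 14 on the other. The 2 CTCF sites without RAD21 were beta sites 5 and 15. In LDB1-AID cells RAD21 was thus present at 7 of 9 beta CTCF peaks (77.8%, Wilson 45.3 to 93.7), against 49.5% of all CTCF peaks.

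The centres of RAD21 and CTCF in the beta window were 4 to 212 bp apart. In LDB1-AID cells RAD21 was on the low-coordinate side, which faces away from the upstream end, at 7 of 7 beta CTCF sites, by 18 to 200 bp. Over all 26816 such pairs 49.7% lay on the low side. In SMC3-AID cells 4 of 6 did, against 49.4% of all. Beta site 1 was split between sublines. RAD21 of LDB1-AID cells lay 18 bp from the CTCF centre and 224 bp from the LDB1 centre, and RAD21 of SMC3-AID cells lay 212 bp from the CTCF centre and 6 bp from the LDB1 centre. At beta site 18 the RAD21 centres of the sublines were 213 bp apart, on opposite sides of CTCF.

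YY1 had 1 peak in the beta window, at beta site 4, on LDB1 and RAD21. LDB1 carried YY1 at 1 of 10 peaks there, against 20.4% of all LDB1 peaks. Beta site 4 held 7 peaks of 5 lists, since each SMC3-AID LDB1 list had 2 peaks there, and it had LDB1 of both sublines, RAD21 and YY1 but no CTCF.

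Long stretches without peaks lay on both sides of the beta sites. Below beta site 1 none of the lists used here held a peak for 837 kb, and above beta site 18 none did for 58.5 kb. Of 77138 gaps between occupied stretches of the main chromosomes, 0.345% were as long as the first and 10.7% as long as the second, and the median gap was 8.77 kb. The next peak outward was a CTCF peak on each side. RefSeq order puts olfactory receptor genes on both sides of the cluster. Around the alpha sites the flanking gaps were 20 and 20.6 kb, and 29.4% and 28.7% of gaps were as long.

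**Figure D2:**
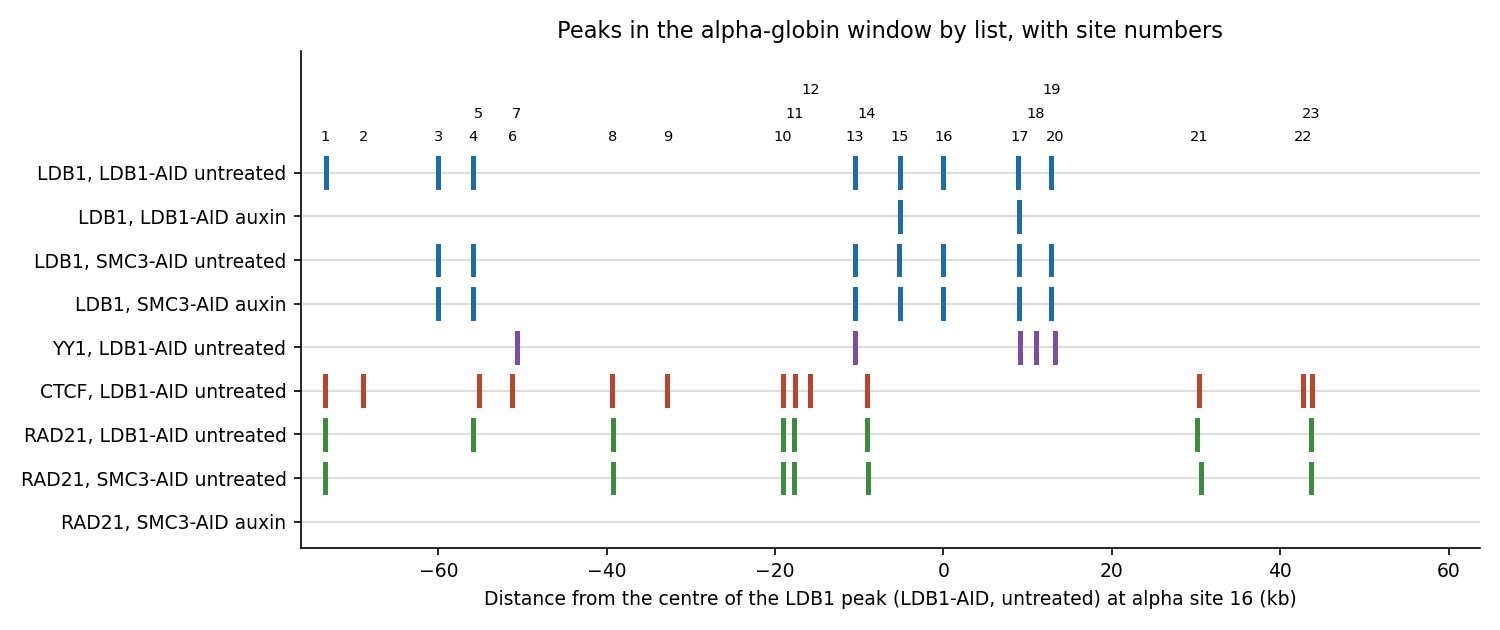
Peaks of the alpha-globin window in the 9 lists (rows), at their distance in kb from the LDB1 peak of untreated LDB1-AID cells at alpha site 16 (horizontal axis); each tick is the centre of 1 peak and the small numbers are site numbers. The LDB1 rows hold 8, 2, 7 and 7 peaks, and the 2 peaks left after LDB1 degradation are at alpha sites 15 and 17.

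In the alpha window LDB1 formed 2 groups. The first, at lower coordinates, comprised alpha site 1 (chr11:32082585-32083183), alpha site 3 (chr11:32096095-32096535) and alpha site 4 (chr11:32100197-32100628). After 45.4 kb without LDB1, a second group of 5 followed over 23.7 kb: alpha site 13 (chr11:32145599-32146039), alpha site 15 (chr11:32150870-32151315), alpha site 16 (chr11:32156124-32156554), alpha site 17 (chr11:32165056-32165592) and alpha site 19 (chr11:32168952-32169364). Their centres in LDB1-AID cells were 5.27, 5.24, 8.93 and 3.9 kb apart. Both SMC3-AID lists held the same number of peaks, 5, in this group. LDB1 density was 5.71 peaks per 100 kb in LDB1-AID cells, and 0.34% of 18829 tiles of 140 kb held as many. This share was 1.64% with the window widened and 0.584% with it narrowed by the same distances. For RAD21 the share of tiles was 4.2% in LDB1-AID and 0.393% in untreated SMC3-AID cells, so a high density was not particular to LDB1.

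Beyond alpha site 20 the LDB1 and YY1 lists were empty. No list held a peak over 16.5 kb (chr11:32169807-32186272). The 7 peaks past this stretch were all of CTCF or RAD21, at alpha site 21 (chr11:32186273-32187090), alpha site 22 (chr11:32198811-32199210) and alpha site 23 (chr11:32199777-32200370). The CTCF centres of alpha sites 21 and 23 were 13.5 kb apart, and both sites held RAD21 of both sublines. This is the downstream side, on which RefSeq order puts the near-identical pairs Hba-a1 with Hba-a2 and Hbq1b with Hbq1a; the promoters of Hba-a1, Hbq1b and Hbq1a are printed above. Whether these peaks lie at those promoters, and whether reads from the copies were kept, was not tested.

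LDB1 degradation left 2 of 8 alpha LDB1 peaks (25%, Wilson 7.15 to 59.1), with 7.77% as the share over the list, which lies inside this interval. They were the peaks at alpha site 15, displaced by 4 bp, and at alpha site 17, displaced by 88 bp. Over all 834 kept peaks the median displacement was 38 bp. Alpha site 15 held LDB1 and no other protein in any list and lay 3.83 kb from the nearest CTCF and RAD21 centres. Alpha site 17 also held YY1, with centres 137 bp apart, and lay 18 kb from the nearest CTCF centre. Together the loci kept 2 of 18 LDB1 peaks (11.1%, Wilson 3.1 to 32.8). The 0 of 10 at beta and 2 of 8 at alpha have overlapping intervals, 0 to 27.8% and 7.15 to 59.1%, and no difference between the loci was established.

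SMC3 degradation left all 7 alpha LDB1 peaks (100%, Wilson 64.6 to 100), against 78.2% of the list. Their centres moved by 0 to 46 bp, with a median of 31 bp. At alpha site 4 the interval was the same before and after auxin (chr11:32100197-32100596). In the same cells 0 of 7 RAD21 peaks of the window were called after auxin, which allows up to 42.9%. Over both loci, 16 of 17 LDB1 peaks were still called (94.1%, Wilson 73 to 99) and 0 of 13 RAD21 peaks were (up to 23.1%).

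Untreated sublines agreed on 7 of 8 alpha LDB1 peaks (87.5%, Wilson 52.9 to 97.8; 67% over the list), with centres a median of 16 bp apart. The exception was alpha site 1, an LDB1 peak on CTCF and RAD21 that was not called in SMC3-AID cells. From the other direction all 17 untreated LDB1 peaks of SMC3-AID cells in the 2 windows were found in LDB1-AID cells, against 84.1% of the list. The LDB1 peaks on which the sublines or the SMC3 conditions disagreed were beta sites 1 and 6 and alpha site 1. Of these, beta site 1 and alpha site 1 held CTCF and beta site 6 did not. Beta site 8 also held CTCF and had LDB1 in both sublines and both SMC3 conditions. Over the list, 83.2% of LDB1 peaks with CTCF were kept after SMC3 degradation, against 78.2% of all. Whether LDB1 peaks with CTCF differed more between sublines was not tested.

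**Figure D3:**
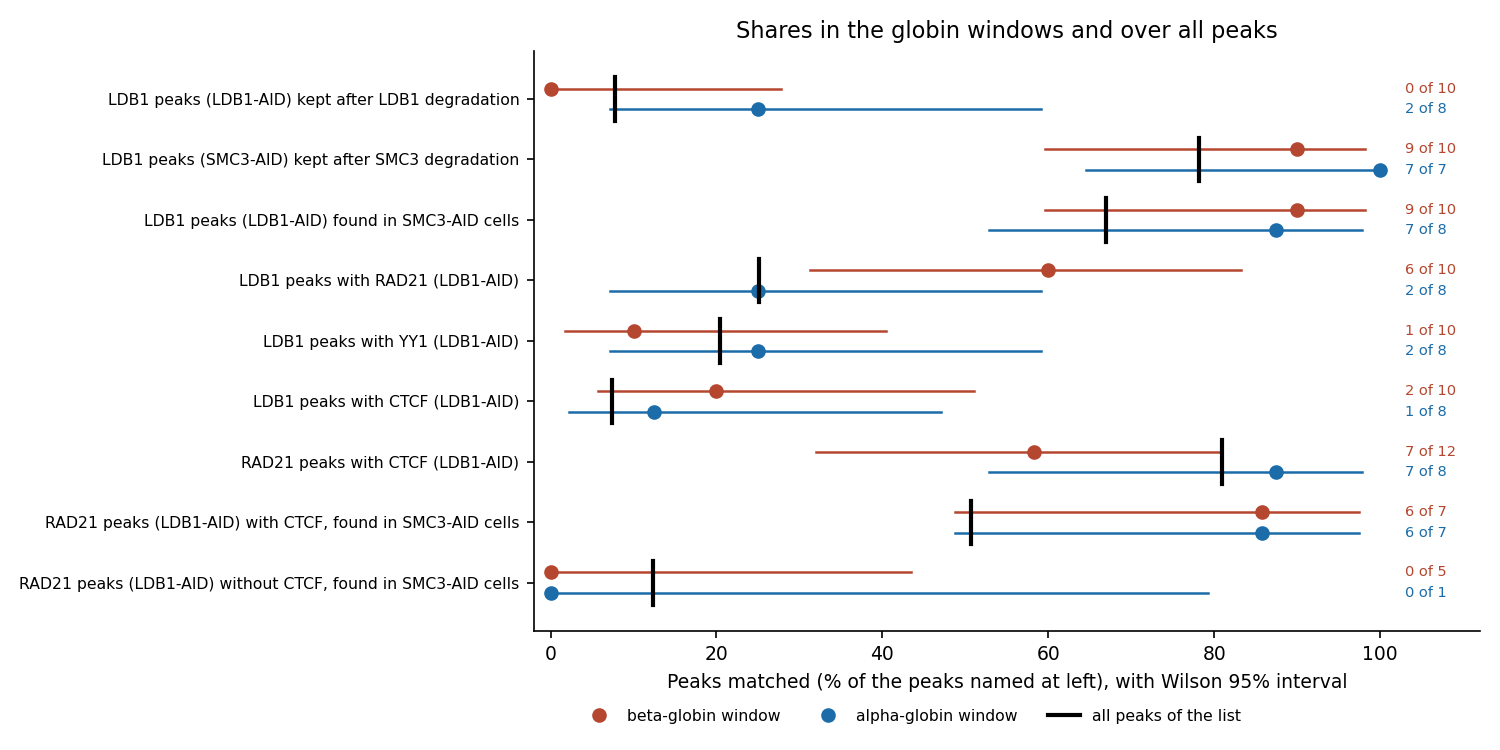
Share of peaks matched in the beta-globin (red) and alpha-globin (blue) windows, in percent on the horizontal axis, with Wilson 95% intervals as lines; black bars give the share over all peaks of the same list and counts stand at the right. After LDB1 degradation 0 of 10 and 2 of 8 LDB1 peaks were kept, and after SMC3 degradation 9 of 10 and 7 of 7.

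Cohesin at the alpha locus was found mainly with CTCF. Of 8 RAD21 peaks of LDB1-AID cells 7 lay on CTCF (87.5%, Wilson 52.9 to 97.8; 80.9% over the list), and all 7 of SMC3-AID cells did (92.3% over the list). The exception was alpha site 4, where RAD21 lay 6 bp from the LDB1 centre and the nearest CTCF centre was 708 bp away. None of the 5 LDB1 peaks of the second group carried RAD21 in either subline, a subset too small to set apart from the list shares. In SMC3-AID cells 0 of 7 alpha LDB1 peaks carried RAD21 (up to 42.9%), near the 5.2% over that list. In LDB1-AID cells LDB1 carried RAD21 at 2 of 8 alpha peaks (25%, against 25.1% of the list), beside 6 of 10 at beta. The Wilson intervals, 7.15 to 59.1 and 31.3 to 83.2, overlap, so the loci were not shown to differ.

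The CTCF sites with RAD21 in both sublines were alpha site 1, alpha site 8 (chr11:32116723-32117225), alpha site 10 (chr11:32137021-32137448), alpha site 11 (chr11:32138342-32138898), alpha site 14 (chr11:32147051-32147483), alpha site 21 and alpha site 23. Alpha sites 10 and 11 formed a pair with CTCF centres 1.48 kb apart on the low-coordinate side of the second LDB1 group. Alpha site 14 lay inside that group, between alpha sites 13 and 15, and there CTCF and RAD21 of LDB1-AID cells had identical intervals (chr11:32147051-32147450). Between alpha sites 14 and 21, 39.4 kb apart, lay 4 of the 8 LDB1 peaks. The other 6 CTCF peaks, at alpha sites 2, 5, 6, 9, 12 and 22, had no RAD21. CTCF peaks numbered 13, or 9.29 per 100 kb, and 3.22% of tiles held as many. RAD21 was present at 53.8% of them (Wilson 29.1 to 76.8), against 49.5% of all CTCF peaks.

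At alpha site 21 the RAD21 peaks of the 2 sublines flanked CTCF. Their centres were 418 bp apart with 18 bp between the intervals, so that by overlap they counted as unmatched although both lay on the same CTCF peak. RAD21 of LDB1-AID cells lay 165 bp below the CTCF centre and RAD21 of SMC3-AID cells 253 bp above it. At the other 6 shared alpha sites the RAD21 centres of the sublines differed by 3 to 56 bp. In LDB1-AID cells RAD21 lay below CTCF at 4 alpha sites, above it at 2 and on the same centre at 1.

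**Figure D4:**
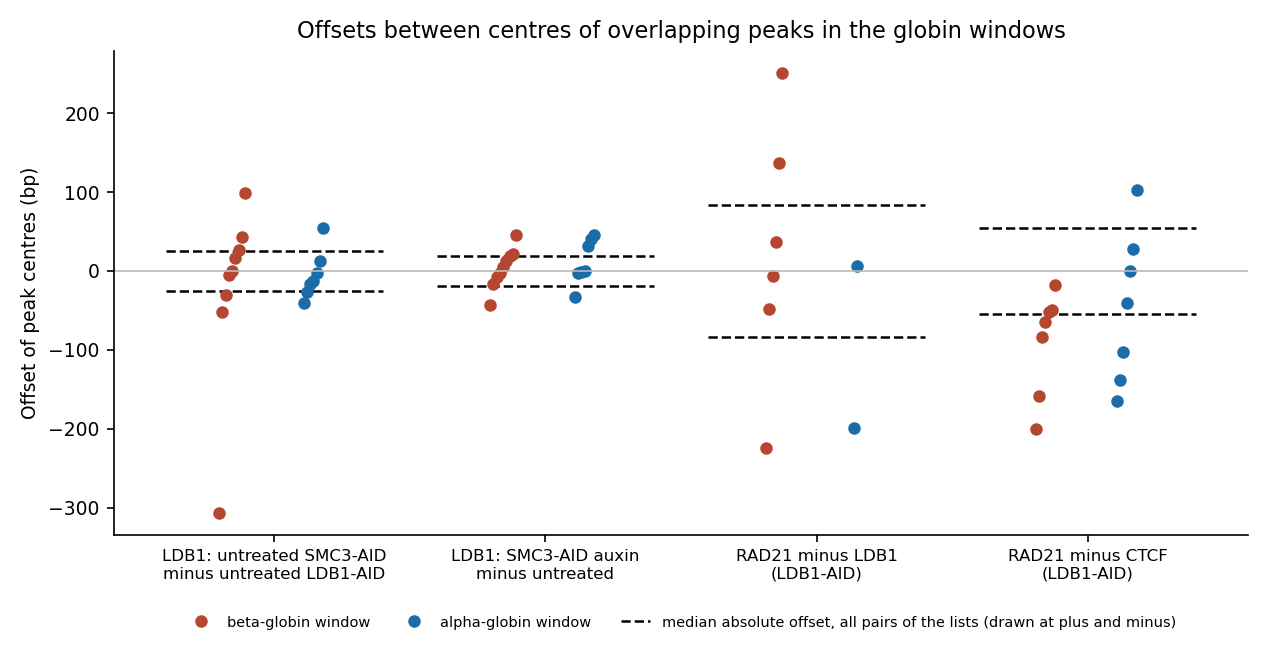
Distance in bp between the centres of overlapping peaks (vertical axis) for 4 pairs of lists; each point is 1 pair of peaks, red for the beta-globin and blue for the alpha-globin window, and dashed lines mark plus and minus the median absolute distance over all such pairs. LDB1 after SMC3 degradation lies within 46 bp of its untreated position. RAD21 of LDB1-AID cells lies below CTCF in 7 of 7 beta and 4 of 7 alpha pairs, against 49.7% of all pairs. For RAD21 of SMC3-AID cells, which is not drawn, the beta count is 4 of 6.

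YY1 had 5 peaks at alpha (3.57 per 100 kb) and 1 at beta (0.5 per 100 kb). As a share of tiles of the same length, 3.26% held as many at alpha. YY1 coincided with LDB1 at alpha site 13, where the centres were 24 bp apart, and at alpha site 17. It stood alone at alpha site 7 (chr11:32105410-32105809), 0.069 kb beyond a CTCF peak, at alpha site 18 (chr11:32167167-32167566), and at alpha site 20 (chr11:32169407-32169806), 0.042 kb beyond alpha site 19. Thus 4 of the 5 YY1 peaks lay at or beside the second LDB1 group. Over both loci 3 of 18 LDB1 peaks carried YY1 (16.7%, against 20.4% of the list).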

How the data were processed

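Values are peak intervals deposited by the authors as 3-column lists (chromosome, start, end), so the unit is a position in bp (other than a count, signal or score). Each list is named as a consensus of the replicates of its group, per the labels. Bowtie2, MACS2 2.2.9.1, deepTools 3.5.1 and mm9 are named in the submitters' processing notes, without roles. Consensus rule, thresholds and filters are not given in the sources used here. All intervals were 400 bp.

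Peaks overlapping the windows were taken from all 9 lists and matched by at least 1 bp. Groups followed the sample titles, and the other samples were not analysed here. Shares over all peaks used chromosomes 1 to 19, X and Y. Intervals are Wilson 95%, and a count of 0 was given the limit of 3 counts. Tiles of each window's length were laid from the start of each chromosome. Coordinates count from 1. Overlap counts were tested on simulated data, and bedtools 2.31.1 gave the same counts for all 72 ordered pairs of lists. Analyses used Python 3.11.15 and scipy 1.17.1. Of 17 gene names looked up, 13 had a RefSeq promoter. Every LDB1 site and every site with CTCF and RAD21 was named, others by count or where they neighbour these. Members, windows and lists were chosen with earlier results of these data known. Alternatives were other overlap, joining, window and tile rules.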

Additional observations from a re-analysis of the deposited data

How the results depend on the processing

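Across 45 results, 141 alternative values were computed and 125 stayed within 1.5 times of the reported count or, for tile shares, inside its 95% interval. Peaks kept after LDB1 degradation (0 and 2) and after SMC3 degradation (9 and 7 of LDB1, 0 and 0 of RAD21) were the same under all 3 other overlap rules. The 0 of LDB1 at beta and both 0 counts of RAD21 could not change, because those auxin lists held 0 peaks there. For 400 bp peaks, allowing centres within 500 bp or a gap of 1 kb can only add matches between lists. A count that already took in every peak, such as the 7 of 7 alpha LDB1 peaks kept, was therefore fixed under those rules. Only the rule of 50% shared could lower it. Stability of such counts is no sign of robustness, although they are counted among the values that stayed. With at least 50% of both peaks shared, beta LDB1 peaks with YY1 went from 1 to 0, those with CTCF from 2 to 1, and beta YY1 peaks with LDB1 from 1 to 0. With a gap of 1 kb allowed, alpha LDB1 peaks with CTCF went from 1 to 2. Occupied sites ranged from 15 to 21 at beta and from 18 to 33 at alpha. Widening the beta window by 50 kb on each side added none to its 18 sites.

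The share of tiles with as many LDB1 peaks as the beta window became 0.494% without empty tiles, 1.15% with the wider and 0.158% with the narrower window (by 20 kb on each side). For beta CTCF these were 23.8%, 27.8% and 15.2%. For alpha LDB1 they were 0.513%, 1.64% and 0.584%, and for alpha CTCF 4.86%, 1.94% and 1.98%. The cause was not tested beyond the change in tiles itself. Overlap alternatives for the splits by CTCF, for CTCF peaks with RAD21, for YY1 peaks with LDB1, for LDB1 with RAD21 in SMC3-AID cells and for LDB1 of auxin-treated SMC3-AID cells in LDB1-AID cells were chosen after seeing the data. No paired analysis was possible because every list merges its replicates and no result comes from a test. For the same reason no replicate could be left out. Depth is unknown, so a missing peak may be a peak below the calling threshold.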
